A study of Mus musculus with 4 samples.

Results

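The genes described here are 35 genes of macrophages, monocytes and other myeloid cells, together with genes that nearly all leukocytes share, measured in mouse back skin. They were chosen by name, and each was read from the brightest of the probe sets (groups of short probes for one transcript) that carry its symbol alone. All 35 had such a probe set, among 18194 genes on the array. A test across genes was run for the 13074 genes whose mean over 4 arrays exceeded 6.33 on the log2 scale, which is the 40th percentile over probe sets. In all, 32 of the 35 members passed this filter, and Clec4d, Clec4e and Itgam did not. Aif1 and Fpr2 passed it only through their K5-IKKbeta arrays, so they could pass only by differing, and counts over the tested members are read with that in mind.

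The study compared back skin of K5-IKKbeta transgenic mice with that of wild type mice, with 2 arrays per genotype. The transgene is the gene of IKKbeta (Ikbkb), the kinase that activates NF-kB, driven by keratin K5 elements, which are active in the basal layer of the epidermis and in hair follicles. All mice were males of 32 days from a C57BL6 X DBA2 background. Each array held pooled RNA of 3 mice of one genotype, so the spread between arrays is a spread between pools, single mice cannot be seen, and the number of transgenic lines is not given in the labels. Over all probe sets, arrays of one genotype correlated at 0.996 (wild type) and 0.994 (K5-IKKbeta), and arrays of different genotypes at 0.965 to 0.969. Krt14, a keratin of basal keratinocytes, averaged 13.1 in control skin and 13.7 in transgenic skin, near the top of the range of the arrays. The transgene's gene was higher on its brightest probe set in K5-IKKbeta skin, from 9.68 and 9.89 to 10.38 and 10.20 (log2 fold change 0.50, adjusted p = 0.023). Leaving out wild type 1 or wild type 2 ended this call (adjusted p = 0.15 and 0.057). Another of its probe sets went from 6.50 and 6.54 to 8.77 and 8.74 (2.24). Values are log2 RMA expression, and differences are K5-IKKbeta minus wild type. The p-values are those of limma, adjusted by Benjamini-Hochberg over all tested genes, with a threshold of 0.05. A permutation of 2 against 2 arrays cannot go below p = 0.33, so calls for single genes rest on the spread that limma shares across genes. Without that sharing 1 of the members, Laptm5, remained higher.

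Macrophages of the skin live in the dermis, where they clear dead cells and debris and renew from local cells and from blood monocytes. Their survival depends on the receptor Csf1r, which binds the growth factors Csf1 and interleukin-34. They sense antibodies, microbes and damaged cells through surface receptors, several of which have no signalling tail of their own and act through the small adaptors Tyrobp and Fcer1g, whose tyrosine motifs (ITAMs) recruit the kinase Syk. Many promoters of these genes are bound by PU.1 (gene Spi1), an Ets factor of myeloid cells.

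Promoter sequences show what the members share in their DNA. Of the 35 members, 28 had an entry in the RefSeq promoter table of the mouse assembly GRCm38.p6, and the first listed start of each was used. Itgb2, Csf1r, Tyrobp, Cd14, Msr1, Ms4a6d and Arg1 had no entry. The 250 bases before the start were searched on both strands for GAGGAA, called the Ets core here, and for the kappa-B consensus, the site type of NF-kB. Only full GAGGAA matches were counted as an Ets core, and other GGAA stretches in the windows stayed unmarked. The motifs were counted separately, and no match of one overlapped a match of the other in these genes. The Ets core was found in 15 of 28 members (53.6%) and in 6252 of 27025 genes of the table (23.1%). The kappa-B consensus was found in 2 of 28 members (7.14%), Csf1 and Fcgr3, and in 1014 of 27025 genes (3.75%). A match is a description of the letters and not a shown binding site. The 6 windows below, each 5′ to 3′ on the gene's strand, stand for the pan-leukocyte genes (Ptprc, Laptm5, Cd53), a fungal receptor with an Ets core (Clec7a) and both members with a kappa-B match. Capitals mark the matches.
Ptprc, chr1:138175306-138175555, strand -: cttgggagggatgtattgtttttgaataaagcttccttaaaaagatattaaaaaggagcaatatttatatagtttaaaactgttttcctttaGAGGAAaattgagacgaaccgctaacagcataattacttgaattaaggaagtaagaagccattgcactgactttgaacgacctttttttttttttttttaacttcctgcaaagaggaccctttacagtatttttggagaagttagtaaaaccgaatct
Laptm5, chr4:130913066-130913315, strand +: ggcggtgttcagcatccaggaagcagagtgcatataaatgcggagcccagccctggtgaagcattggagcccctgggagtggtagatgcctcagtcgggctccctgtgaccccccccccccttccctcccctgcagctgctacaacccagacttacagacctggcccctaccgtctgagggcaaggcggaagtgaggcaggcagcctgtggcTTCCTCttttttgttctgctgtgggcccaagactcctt
Cd53, chr3:106790150-106790399, strand -: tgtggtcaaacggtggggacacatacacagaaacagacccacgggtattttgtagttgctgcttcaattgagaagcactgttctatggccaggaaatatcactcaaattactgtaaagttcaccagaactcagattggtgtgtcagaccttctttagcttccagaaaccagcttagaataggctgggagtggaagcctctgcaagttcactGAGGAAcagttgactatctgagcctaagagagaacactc
Clec7a, chr6:129472780-129473029, strand -: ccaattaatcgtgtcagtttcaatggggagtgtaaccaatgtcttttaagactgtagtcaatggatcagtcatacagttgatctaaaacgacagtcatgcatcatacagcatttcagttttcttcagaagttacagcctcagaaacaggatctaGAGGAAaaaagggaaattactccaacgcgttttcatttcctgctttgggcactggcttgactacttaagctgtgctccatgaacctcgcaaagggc
Csf1, chr3:107760470-107760719, strand -: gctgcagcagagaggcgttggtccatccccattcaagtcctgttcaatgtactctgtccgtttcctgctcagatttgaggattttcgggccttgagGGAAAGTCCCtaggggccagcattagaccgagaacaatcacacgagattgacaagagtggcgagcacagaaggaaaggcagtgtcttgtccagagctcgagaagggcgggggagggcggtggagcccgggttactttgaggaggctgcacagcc
Fcgr3, chr1:171059404-171059653, strand -: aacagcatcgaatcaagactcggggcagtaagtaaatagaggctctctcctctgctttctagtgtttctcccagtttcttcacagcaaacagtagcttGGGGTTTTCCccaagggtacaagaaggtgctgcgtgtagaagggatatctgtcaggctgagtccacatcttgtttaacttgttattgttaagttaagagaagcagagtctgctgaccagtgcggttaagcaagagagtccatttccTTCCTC
The Ets core began 38 bases before the start in Laptm5, 39 in Cd53, 96 in Clec7a, 158 in Ptprc and 6 in Fcgr3. In Csf1 the kappa-B match began 154 bases before the start, and in Fcgr3 it began 152 bases before it. Promoters of Mpeg1 and Coro1a, whose transcripts were among the most raised, held neither of these letter patterns in this window.

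K5-IKKbeta skin had higher levels of 27 of the 32 tested members and a lower level of 1, Arg1. Of all tested genes, 23.4% were higher and 10.6% lower, 33.9% in all. The members' median log2 fold change was 1.07, against 0.09 for all tested genes. A rise of at least 2-fold was called for 19 members, against 5.97% of all tested genes. In 31 of the 32 the arrays of the genotypes did not overlap, as in 69.5% of all tested genes. Among the 30 members with both group means above the filter, 25 were higher and 1 lower. With no filter all 35 members were tested, and 27 were higher and 1 lower; Itgam was then past the threshold and Fcgr1 was not. RNA of whole skin cannot tell more cells of a type from more RNA per cell, or from a larger share of the RNA where other transcripts were lost. The log2 of the summed hair shaft markers was 16.81 and 16.84 in wild type and 11.83 and 12.37 in K5-IKKbeta skin. The part of that loss in the rise of the members was not tested.

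**Figure D1:**
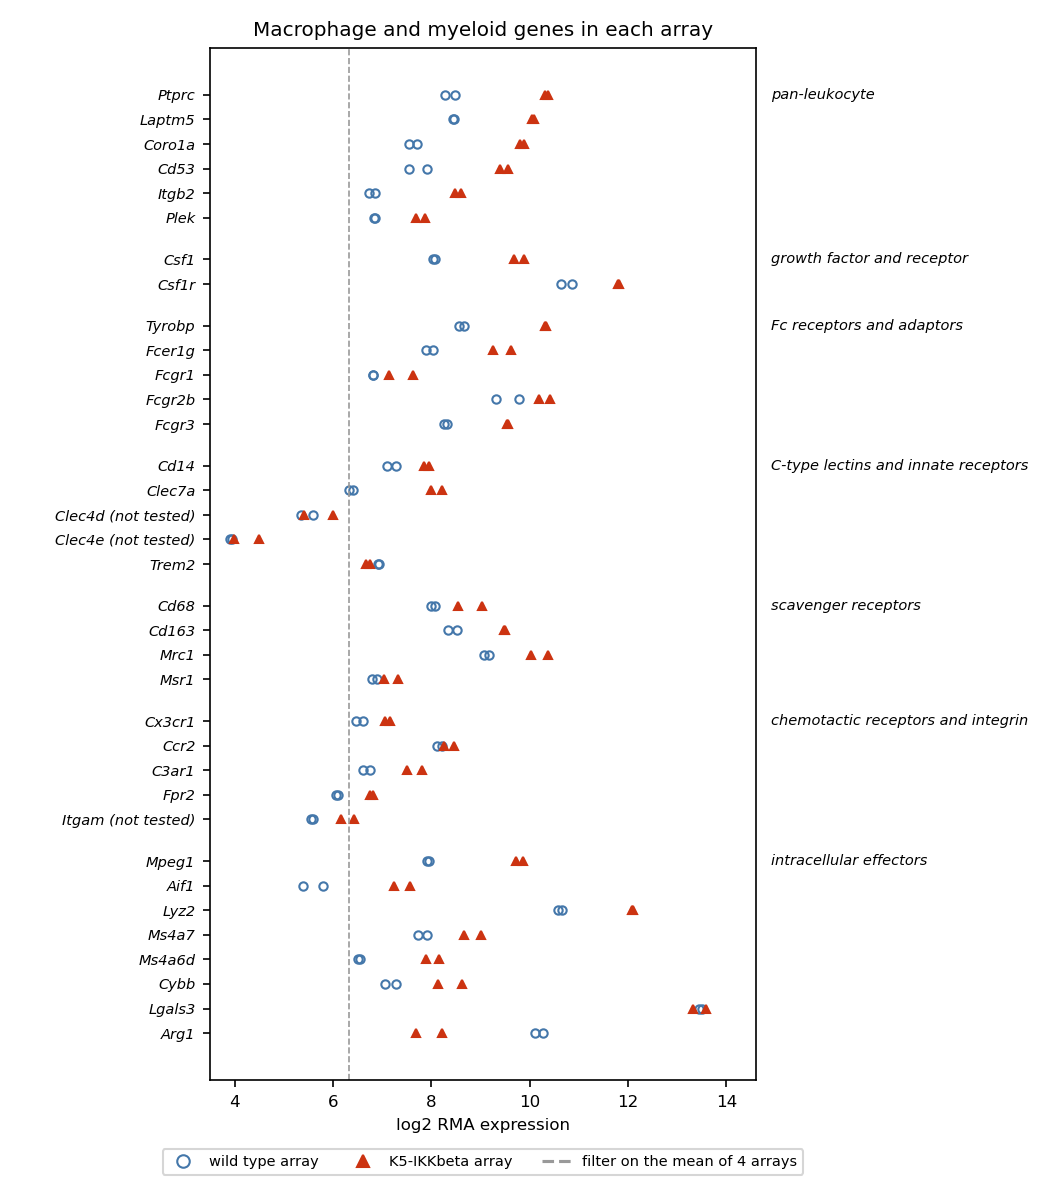
Log2 RMA expression (horizontal axis) of all 35 members in each of 4 arrays, grouped by role; open circles are wild type arrays, triangles K5-IKKbeta arrays, and the dashed line the filter at 6.33. The groups are separate for most members, Clec4d and Lgals3 overlap, and Arg1 and, without passing the threshold, Trem2 lie lower in both K5-IKKbeta arrays; levels of different genes cannot be compared, because probe sets differ in brightness.

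The pan-leukocyte genes rose, 6 of 6, by 0.94 to 2.21 (median 1.74). Coro1a, an actin-binding protein of leukocytes, measured 7.55 and 7.72 in wild type and 9.88 and 9.81 in K5-IKKbeta skin, a 4.63-fold rise (log2 fold change 2.21, SE 0.10, adjusted p = 7.2e-05). Ptprc, the phosphatase CD45 on all leukocytes, measured 8.27 and 8.48 in wild type and 10.30 and 10.37 in K5-IKKbeta skin, a 3.89-fold rise (log2 fold change 1.96, SE 0.11, adjusted p = 0.00013). For both genes the difference between genotypes was many times that between pools. Cd53, a leukocyte tetraspanin, went from 7.55 and 7.91 to 9.40 and 9.56 (3.36-fold). Itgb2, the shared beta chain of leukocyte integrins, went from 6.86 and 6.74 to 8.48 and 8.60 (3.34-fold). Laptm5, a lysosomal membrane protein of blood cells, rose 3.08-fold on its brightest probe set, from 8.45 and 8.43 to 10.04 and 10.09. That probe set has an ending that marks sequence shared with other transcripts; 2 more probe sets of that kind gave 1.22 and 0.78, whereas the one above the filter without such an ending gave 0.28 (adjusted p = 0.16 with the others left out). Plek, a protein kinase C substrate of platelets and leukocytes, had the smallest rise of these 6, from 6.83 and 6.85 to 7.68 and 7.87 (1.92-fold, adjusted p = 0.0014). A second list of genes shared by leukocytes moved the same way, with 17 of 17 tested genes higher (median 1.28), 3 of which passed the filter through K5-IKKbeta arrays alone. Cd52, a glycopeptide of the leukocyte surface, rose 5.35-fold and Cytip, a scaffold protein of leukocytes, 4.33-fold.

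The growth factor Csf1 and its receptor were both higher. Csf1 measured 8.06 and 8.04 in wild type and 9.88 and 9.69 in K5-IKKbeta skin, a 3.32-fold rise (log2 fold change 1.73, SE 0.11, adjusted p = 0.00017). The 3 other probe sets of Csf1 gave 1.49, 0.53 and 0.20, and the last of these was not past the threshold (adjusted p = 0.33 over all probe sets). Csf1r measured 10.85 and 10.63 in wild type and 11.82 and 11.79 in K5-IKKbeta skin, a 2.09-fold rise (log2 fold change 1.06, SE 0.11, adjusted p = 0.0011). Its other 2 probe sets gave 1.02 and 0.85. Csf1 is made by many cells, keratinocytes and fibroblasts among them, whereas Csf1r marks the myeloid cells that respond to it. Il34, the other ligand of Csf1r and a product of keratinocytes, measured 6.88 and 7.05 in wild type and 7.17 and 6.84 in K5-IKKbeta skin (log2 fold change 0.04, adjusted p = 0.84), a gene chosen with its value known. Of 6 tested colony-stimulating factors and receptors outside the members, 2 were higher and 1 lower (median 0.21), against 23.4% and 10.6% of tested genes. The higher ones were both chains of the GM-CSF receptor, Csf2rb at 3.11-fold and Csf2ra at 3.09-fold. The lower one was Kitl, the ligand of the mast cell and melanocyte receptor Kit (-0.67, adjusted p = 0.023), a call lost without wild type 2.

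All 5 Fc receptors and adaptors were higher, by 0.57 to 1.72, with the Fcgr1 and Fcgr2b calls depending on single arrays. The adaptor Tyrobp measured 8.66 and 8.55 in wild type and 10.31 and 10.33 in K5-IKKbeta skin, a 3.29-fold rise (log2 fold change 1.72, SE 0.10, adjusted p = 0.00012). Fcer1g, the gamma chain shared by Fc receptors of macrophages and mast cells, measured 7.89 and 8.03 in wild type and 9.26 and 9.62 in K5-IKKbeta skin (2.78-fold, adjusted p = 0.00086). Fcgr3, a low-affinity activating IgG receptor, went from 8.25 and 8.32 to 9.54 and 9.56 (2.41-fold, adjusted p = 0.00032). None of the 5 genes overlapped between genotypes, as in 69.5% of all tested genes. Tyrobp, Fcer1g and Fcgr3 kept their calls with any single array left out. The inhibitory IgG receptor Fcgr2b and the high-affinity receptor Fcgr1 had the smallest log2 fold changes of the 5 on their brightest probe sets. Fcgr2b went from 9.78 and 9.32 to 10.19 and 10.41 (1.69-fold, adjusted p = 0.020), which leaving out wild type 2 ended (0.52, adjusted p = 0.092). The 3 other Fcgr2b probe sets above the filter gave 1.15, 1.40 and 1.42. Fcgr1 measured 6.81 and 6.82 in wild type and 7.14 and 7.62 in K5-IKKbeta skin (1.48-fold, adjusted p = 0.043). Leaving out wild type 1 (adjusted p = 0.17), wild type 2 (adjusted p = 0.16) or K5-IKKbeta 2 (0.33, adjusted p = 0.067) ended the Fcgr1 call. It also ended after each of 3 other normalizations (adjusted p = 0.055 each), and the second Fcgr1 probe set gave 0.26 (adjusted p = 0.17 over all probe sets). Fcgr2b and Fcgr3 are similar in sequence, so their probe sets may share signal.

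Signalling genes behind these adaptors were higher in part, with 8 of 12 tested and none lower (median 0.57). Without wild type 2 the count was 5. Inpp5d, the lipid phosphatase SHIP1 that restrains this signalling, rose 2.50-fold, and the scaffold Lcp2 2.42-fold, the latter passing the filter through K5-IKKbeta arrays alone. Syk, the kinase recruited to ITAMs, measured 8.13 and 8.05 in wild type and 8.14 and 8.20 in K5-IKKbeta skin (log2 fold change 0.08, adjusted p = 0.58), also chosen with its value known.

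Among C-type lectins and other innate receptors, Clec7a (dectin-1, a receptor for fungal glucans) rose most. It measured 6.32 and 6.40 in wild type and 7.99 and 8.22 in K5-IKKbeta skin, a 3.36-fold rise (log2 fold change 1.75, SE 0.12, adjusted p = 0.00022). Cd14, a co-receptor for bacterial lipopolysaccharide, went from 7.29 and 7.09 to 7.95 and 7.84 (1.63-fold, adjusted p = 0.0050). Both genes were higher in each K5-IKKbeta array than in either wild type array. In either direction, the genotypes did not overlap in 69.5% of all tested genes. Trem2, a lipid-sensing receptor that signals through Tyrobp, measured 6.94 and 6.91 in wild type and 6.76 and 6.66 in K5-IKKbeta skin (-0.22, SE 0.10, adjusted p = 0.14). Its second probe set gave 0.22 (adjusted p = 0.35 over all probe sets), so no direction is given. Clec4d and Clec4e, receptors for mycobacterial glycolipids and dead cells, were dim and not tested. Clec4d measured 5.60 and 5.36 against 6.01 and 5.42, with overlap. Clec4e lay below the 25th percentile of its array (5.27 to 5.38) in all 4 arrays, which is taken here as near background.

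Of the 4 scavenger receptors, Mrc1, Cd163 and Cd68 were higher and Msr1 was not past the threshold. Mrc1, the mannose receptor, measured 9.17 and 9.07 in wild type and 10.03 and 10.37 in K5-IKKbeta skin, a 2.12-fold rise (log2 fold change 1.09, SE 0.14, adjusted p = 0.0022). Cd163, the haemoglobin scavenger receptor, went from 8.53 and 8.34 to 9.48 and 9.51 (2.09-fold, adjusted p = 0.00092). None of the 4 scavenger receptors overlapped between genotypes, as in 69.5% of all tested genes. Cd68, a lysosomal glycoprotein used as a general macrophage marker, measured 7.99 and 8.08 in wild type and 8.55 and 9.04 in K5-IKKbeta skin (1.69-fold, adjusted p = 0.017). Its K5-IKKbeta pools differed by 0.49, and leaving out wild type 1 or wild type 2 ended the call (adjusted p = 0.10 and 0.078). Msr1, a receptor for modified lipoproteins, measured 6.89 and 6.80 against 7.05 and 7.31 (0.34, adjusted p = 0.082), and it passed without K5-IKKbeta 1 (0.47, adjusted p = 0.020).

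Receptors that guide myeloid cells were higher in 3 of 4 tested, with log2 fold changes of 0.19 to 0.98. C3ar1, the receptor of complement fragment C3a, went from 6.61 and 6.75 to 7.50 and 7.82 (1.97-fold, adjusted p = 0.0031). Fpr2, a formyl peptide receptor, measured 6.07 and 6.11 in wild type and 6.75 and 6.81 in K5-IKKbeta skin (1.61-fold, adjusted p = 0.0028). Cx3cr1, the fractalkine receptor, went from 6.60 and 6.47 to 7.05 and 7.15 (1.48-fold, adjusted p = 0.0085); without wild type 2 its call was lost (adjusted p = 0.077). These 3 genes were dim in wild type skin, and none of them overlapped between genotypes, as in 69.5% of all tested genes. Itgam, the alpha chain of the integrin Mac-1, measured 5.60 and 5.55 in wild type and 6.16 and 6.43 in K5-IKKbeta skin; tested with no filter it gave 0.72 (adjusted p = 0.0079).

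For Ccr2, the receptor that brings monocytes to sites of Ccl2, the reading depended on the probe set. The brightest measured 8.11 and 8.22 in wild type and 8.45 and 8.26 in K5-IKKbeta skin (0.19, adjusted p = 0.25). The other 3 were past the threshold. The second brightest went from 7.04 and 6.94 to 8.48 and 9.04 (1.77, adjusted p = 0.0019 over all probe sets). The dimmest went from 5.19 and 5.83 to 6.90 and 7.75 (1.82, adjusted p = 0.011) and the last one from 6.86 and 6.58 to 7.70 and 7.55 (0.90, adjusted p = 0.0067). With the mean of all 4 probe sets Ccr2 was higher by 1.17 (adjusted p = 0.00092). Which transcript each of them detects was not analysed here. Ccl2 itself, the chemokine ligand, rose 8.75-fold, from 5.96 and 6.04 to 9.24 and 9.02, and passed the filter through K5-IKKbeta arrays alone. Of 5 tested monocyte chemokines and receptors outside the members 3 were higher (median 0.77); Ccl8, a chemokine of dermal macrophages, rose 1.85-fold.

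The other probe sets of the members were read in the same way. The members had 71 probe sets, and 18 members had more than 1. Of 24 probe sets that were not the brightest of their gene but lay above the filter, 19 were higher, the 3 of Ccr2 among them, and none lower. Among all 45101 probe sets, dim ones included, 10.4% were higher and 5.88% lower (16.3% in all). That is a wider set than the 24. Among the tested genes, which lay above the filter, 23.4% were higher and 10.6% lower. The count of 19 became 12 without wild type 1. Of 12 below the filter, 4 were higher and none lower.

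**Figure D2:**
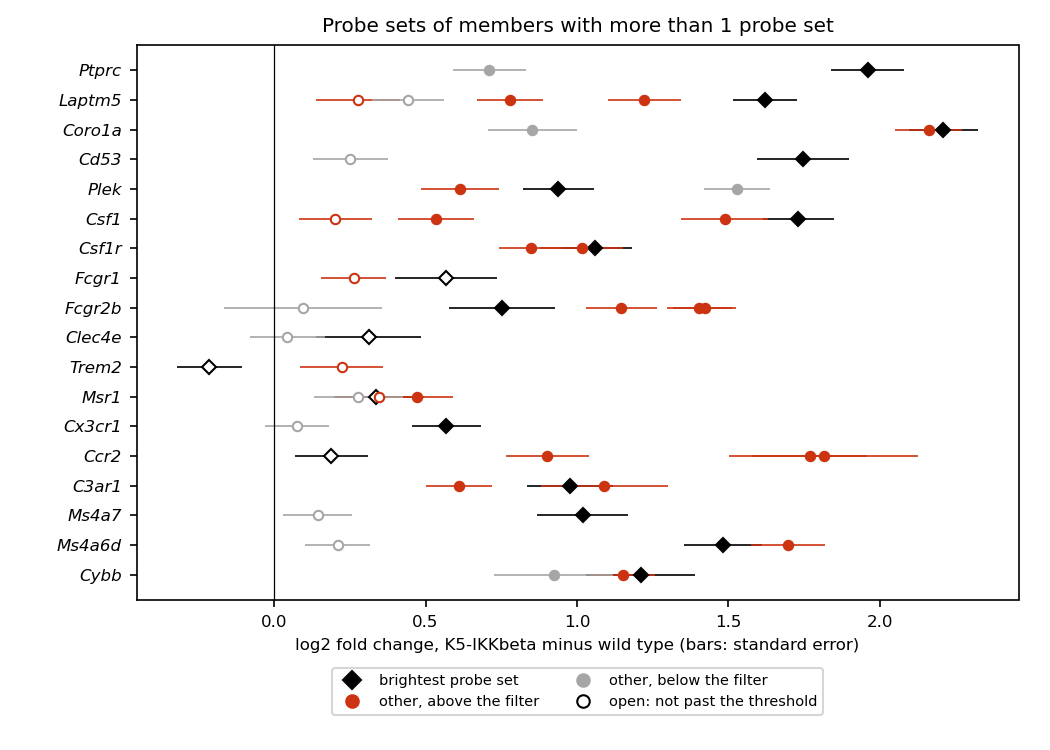
Log2 fold change (horizontal axis, K5-IKKbeta minus wild type, bars are limma standard errors over all probe sets) of every probe set of the 18 members with more than 1; diamonds are the brightest probe sets, circles the others, and open symbols are not past the threshold. For Ccr2 the brightest probe set lies at 0.19 and the others at 0.90 to 1.82.

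Effector genes of macrophages included the largest rises outside the pan-leukocyte group and the one fall. Mpeg1, a pore-forming protein that kills engulfed bacteria, measured 7.96 and 7.92 in wild type and 9.72 and 9.87 in K5-IKKbeta skin, a 3.62-fold rise (log2 fold change 1.86, SE 0.10, adjusted p = 0.00011). Aif1, an actin-bundling protein of macrophages, measured 5.39 and 5.79 in wild type and 7.25 and 7.58 in K5-IKKbeta skin (3.53-fold, adjusted p = 0.00081). Its wild type arrays lay close to the 25th percentile of the array, so the fold is uncertain. Lyz2, the lysozyme of macrophages and neutrophils, went from 10.65 and 10.57 to 12.07 and 12.11 (2.79-fold, adjusted p = 0.00019). It is nearly identical to Lyz1, so its value is uncertain. The membrane proteins Ms4a6d and Ms4a7 rose 2.80-fold and 2.03-fold, with no overlap between genotypes, as in 69.5% of all tested genes. Cybb, the catalytic subunit of the phagocyte NADPH oxidase, measured 7.27 and 7.06 in wild type and 8.14 and 8.62 in K5-IKKbeta skin (2.31-fold, adjusted p = 0.0038). Other subunits of that oxidase were higher too, 4 of 4 tested (median 0.82), with Cyba, the membrane partner of Cybb, at 3.31-fold and the cytosolic Ncf4 at 1.82-fold.

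Arg1 and Lgals3 departed from the other effectors. Arg1, the enzyme that splits arginine into ornithine and urea, measured 10.11 and 10.27 in wild type and 8.21 and 7.69 in K5-IKKbeta skin, a 4.73-fold fall (log2 fold change -2.24, SE 0.18, adjusted p = 0.00048). Both K5-IKKbeta arrays lay well below both wild type arrays, and the fall was -1.98 to -2.51 with any single array left out. Lgals3 (galectin-3) measured 13.50 and 13.43 in wild type and 13.58 and 13.31 in K5-IKKbeta skin (-0.02, adjusted p = 0.92), with overlap. Keratinocytes express both genes, so their level in whole skin is not a reading of macrophages alone. Hair shaft markers fell together in the same arrays (11 of 11 tested, median -5.88, with Krt86 at -7.03 and Krt34 at -6.83), as did melanocyte markers (8 of 8, median -1.44, with Gpnmb at -2.19 and Oca2 at -1.78). The part of these losses in the fall of Arg1 was not tested.

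**Figure D3:**
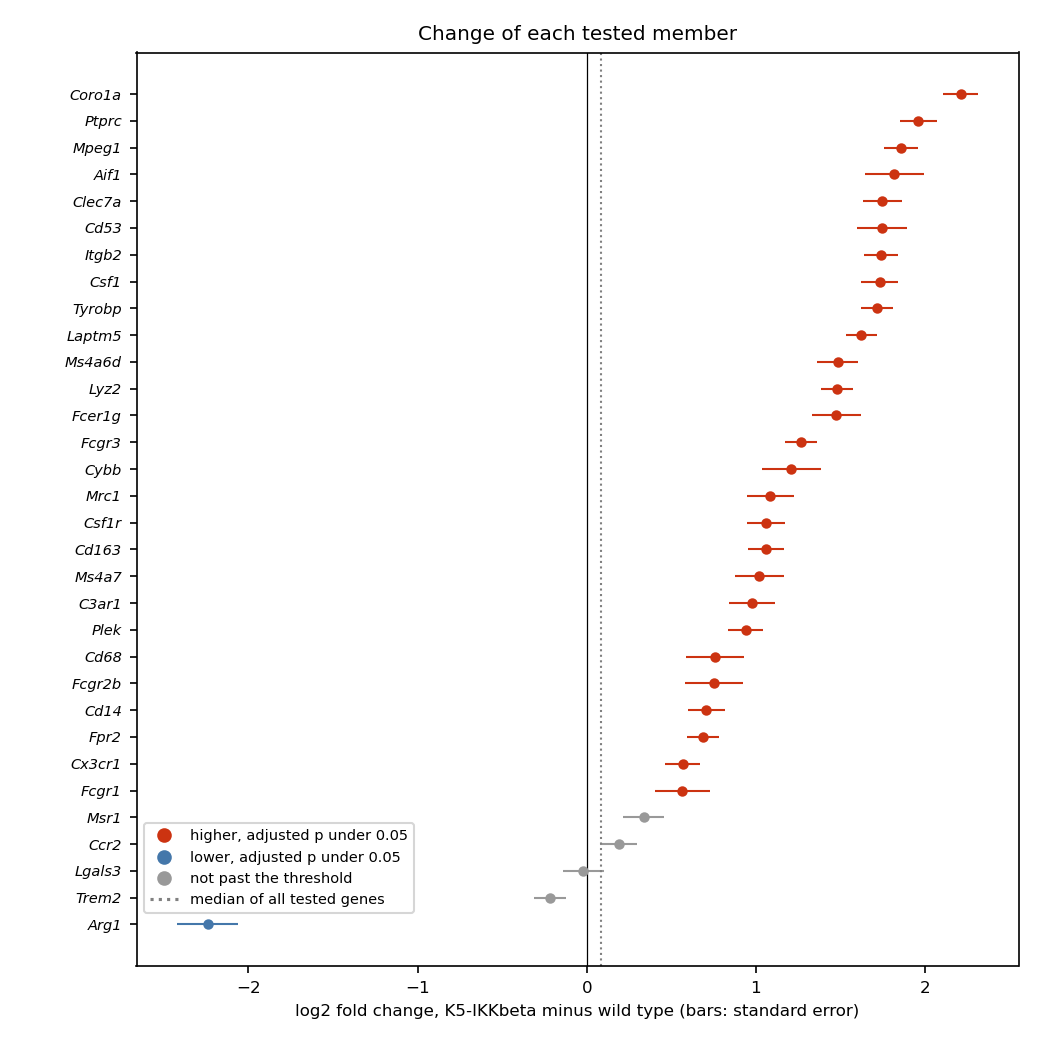
Log2 fold change (horizontal axis, K5-IKKbeta minus wild type) of the 32 tested members in order of size, with limma standard errors as bars; the dotted line is the median of all tested genes, 0.09. From Fcgr1 at 0.57 up to Coro1a at 2.21 the members are higher, 4 are not past the threshold, and Arg1 is lower at -2.24.

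By subgroup, higher calls were made for 6 of 6 pan-leukocyte genes, 13 of 13 tested general macrophage and myeloid genes (median 1.48) and 3 of 4 resident macrophage genes (Cd163, Mrc1 and Cx3cr1, not Msr1; median 0.81). Of 9 tested genes of activated and recruited macrophages, 5 were higher and 1 lower (median 0.69): Clec7a, Cybb, C3ar1, Cd14 and Fpr2 rose, Arg1 fell, and Ccr2, Trem2 and Lgals3 did not pass. Without wild type 2 the resident count was 2, and without K5-IKKbeta 1 it was 4. The difference between subgroups was not tested. The 26 tested members outside the pan-leukocyte group were set against the mean of its 6 genes in the same array, which rose by 1.70. Of these 26, Mpeg1 alone was higher in both K5-IKKbeta arrays than in both wild type arrays. Csf1, Tyrobp, Clec7a and Aif1 overlapped, and the other 21 of the 26 were lower, as were 97.7% of all tested genes. The same 26 members were also set against the mean of the second leukocyte list, which rose by 1.33. Here 7 members were higher, 2 overlapped and 17 were lower, as were 95.5% of all tested genes.

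Differences between pools of one genotype were read for the same genes. Wild type 2 lay above wild type 1 in 15 of 32 tested members (median difference -0.02, range -0.46 to 0.40), and in 8193 of 13074 tested genes. K5-IKKbeta 2 lay above K5-IKKbeta 1 in 24 of 32 (median difference 0.11, range -0.53 to 0.49), and in 6698 of 13074 tested genes. Among the general macrophage and myeloid members it was 11 of 13 (median 0.22). The K5-IKKbeta pools differed most in size in Arg1 (-0.53), and Cd68 (0.49) and Fcgr1 (0.48) differed by amounts not far below their changes between genotypes (0.76 and 0.57).

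Other macrophage genes, listed separately from the members, were mostly higher, with 14 of 19 tested higher and 2 lower (median 0.92). Among the 18 with both group means above the filter, 13 were higher and 2 lower. Ctss, a lysosomal protease of antigen-presenting cells, rose 3.40-fold and Ly86, a partner of a Toll-like receptor homologue, 2.58-fold. The lower ones were Siglec1, a sialic acid receptor of macrophages (-0.48, adjusted p = 0.036), and the protease Ctsb (-0.60, adjusted p = 0.0059). The count of lower genes was 0 without wild type 1 and 1 without wild type 2 or without K5-IKKbeta 2. Among transcription factors of myeloid cells, 7 of 12 tested were higher and 1 lower (median 0.61). Pparg, also a factor of sebocytes and adipocytes, rose 3.60-fold and Irf8, a factor of monocytes and dendritic cells, 2.49-fold. Spi1 (PU.1) rose 2.17-fold, from 7.14 and 7.29 to 8.20 and 8.47 (adjusted p = 0.0014), and was picked because its site was searched above. The lower one was Maf (-0.96, adjusted p = 0.0043), which is also expressed outside macrophages.

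Both the classical and the alternative activation lists held genes that rose. Of 14 listed classical activation genes 8 were tested, with 6 higher and none lower (median 0.92). Among the 7 with both group means above the filter, 5 were higher. Over all tested genes 23.4% were higher. The interferon-gamma-induced chemokines Cxcl9 at 10.6-fold and Cxcl10 at 9.69-fold rose most. Which cells made these transcripts was not tested. Among the listed genes too dim for the test, Nos2 (-0.09) and Cd80 (0.11) overlapped between genotypes. Il6 and Il12b lay near background in every array. Ptgs2 (0.93) and Slamf8 (1.02), also not tested, measured higher in K5-IKKbeta skin without overlap, with wild type arrays near background. Ptgs2 lay near background in K5-IKKbeta 1 as well (5.22, with the background level of that array at 5.35). Slamf8 lay just above that level in the same array (5.38), so the size of both differences is uncertain. Il1b and Tnf were not past the threshold (0.26, adjusted p = 0.081, and 0.63, adjusted p = 0.12). Of 11 listed alternative activation genes 8 were tested, with 6 higher and none lower (median 0.81). Among the 7 of these with both group means above the filter, 5 were higher. The macrophage lectins Mgl2 at 2.78-fold and Clec10a at 2.06-fold rose most. Chil3, Chil4 and Pdcd1lg2 lay near background in every array and were not tested. Arg1, the enzyme most used to mark alternative activation in mice, fell in the same arrays.

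Markers of other cells that share member genes were read in the same way. Of 8 tested dendritic and Langerhans cell markers 5 were higher, none lower and 3 not past the threshold (median 1.40, range -0.32 to 2.25). The largest rises were those of H2-Aa at 4.77-fold and Cd74 at 4.14-fold, whereas Flt3 was not past the threshold (0.28, adjusted p = 0.12). H2-Aa and Cd74 are genes of antigen presentation, and which cells made their transcripts was not tested. Mast cells also express Fcer1g and Ptprc, and 5 of 6 tested mast cell markers were higher (median 1.15), with 3.42-fold for the protease Mcpt4 and 3.35-fold for Cpa3. The log2 of the summed mast cell markers was 11.04 and 11.20 in wild type and 12.10 and 12.51 in K5-IKKbeta skin. T cells and NK cells share the pan-leukocyte genes. Higher calls were made for 2 of 5 tested T cell markers (Cd3g at 2.24-fold, Cd3d at 1.55-fold) and 1 of 2 NK cell markers (Nkg7 at 1.73-fold). Over all tested genes 23.4% were higher, and these marker lists are short. The summed T cell markers measured 9.83 and 9.71 against 10.30 and 10.01, and the NK cell markers 8.50 and 8.47 against 8.98 and 8.91. The part of these cells in the rise of the shared genes was not tested.

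Neutrophils express Itgam, Clec4d, Fpr2 and Lyz2. Of 10 neutrophil markers with a probe set 5 were tested, with 1 higher, S100a9 (5.49-fold), and 1 lower, Stfa2l1 (-1.38). Stfa2l1 passed the filter through wild type arrays alone. Over all tested genes 23.4% were higher and 10.6% lower. The summed neutrophil markers measured 10.75 and 10.86 against 11.19 and 11.02. Bright genes weigh most in such a sum, and S100a8 and S100a9 are part of it, so it is not read as a number of neutrophils. The only tested B cell marker, Cd22, gave -0.02 (adjusted p = 0.93). Basal keratinocyte markers, which mark the cells that carry the transgene, were higher in 5 of 7 (median 0.49), Col17a1 by 1.54-fold and Krt14 by 1.44-fold. Fibroblast markers were higher in 3 of 6 (Pdgfra 2.47-fold, Lum 2.13-fold) and endothelial markers in 4 of 6 (Pecam1 2.01-fold, Emcn 1.79-fold).

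**Figure D4:**
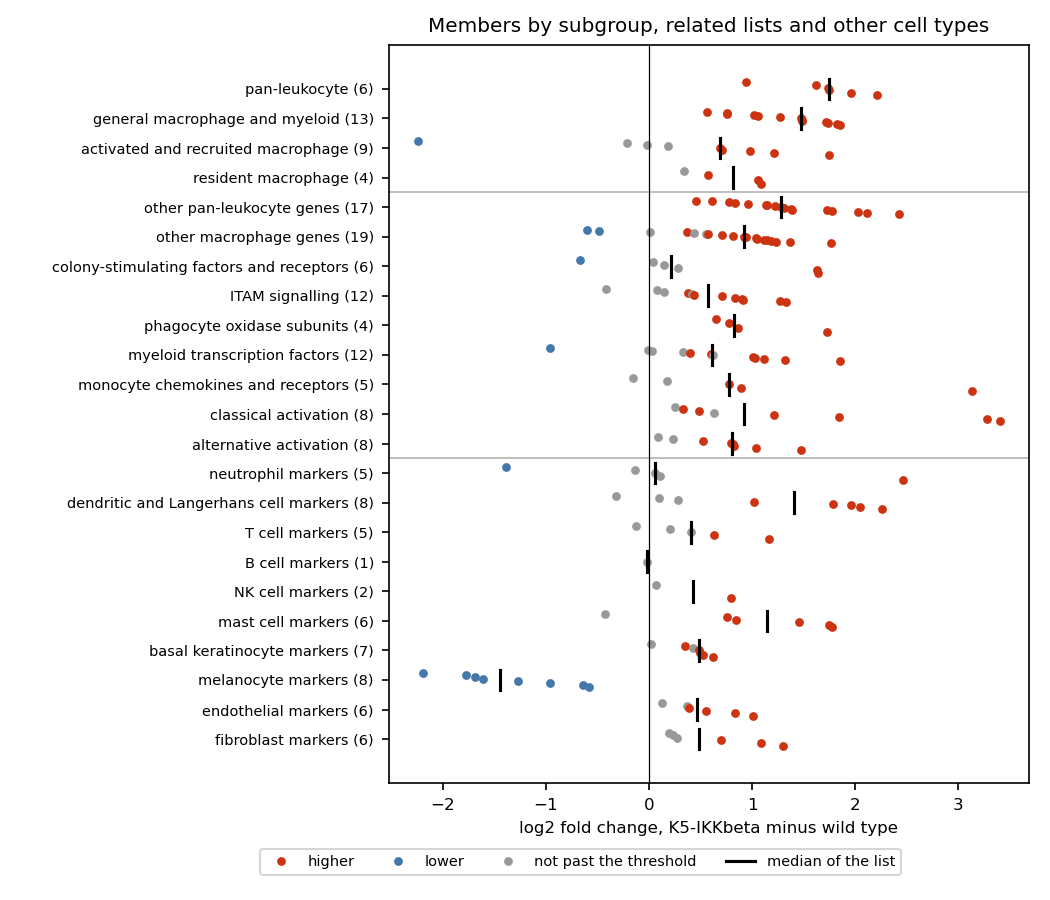
Log2 fold change (horizontal axis, K5-IKKbeta minus wild type) of the tested genes of each list, with the number tested in brackets; dots are genes coloured by call, and bars are list medians. The member subgroups are at the top, related lists in the middle and markers of other cell types at the bottom; hair shaft markers, all lower with a median of -5.88, are left out.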

How the data were processed

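Total RNA of back skin was extracted with Trizol and columns and labelled with biotin from 5 micrograms, as the labels' protocols state. The values as deposited by the authors, taken here as log2, had been background-corrected, normalized and summarised per probe set by RMA, the tool that the submitters' processing notes name without a version. The log base is not given, and the range (2.65 to 14.7) is that of log2 values; no further normalization was made. RMA values tend to understate large differences. A genome build is not given in the sources used here.

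Of 45101 probe sets, 34958 had 1 symbol in the platform annotation, 932 several and 9211 none; 34754 matched the RefSeq gene table by identifier, and 0 symbols changed. The brightest probe set stood for a gene, and genes above the 40th percentile were tested with limma 3.58.1 in R 4.3.3 (lmFit, eBayes, two-sided). The replicate samples are pools of 3 mice, no label says whether pools shared mice, and p-values measure the spread between them; 2 arrays per group limit the precision. No batch is given in the sources used here. On simulated data for 13074 genes, 67 were changed 1.5-fold, 67 were changed 2-fold and 66 were changed 4-fold. Of these, 28.4%, 88.1% and 100% were recovered, with 10 false calls among 154. Far fewer genes were changed there than the 33.9% called in the data, so these rates need not hold for this comparison.

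Members and lists were chosen with earlier results of these data known. All members were named; from every other list the 2 genes past the threshold with the largest change were named, or the 1 with the smallest p, and further genes are said to have been picked afterwards or were named because they are few. Alternatives were other filters, probe set choices, normalizations, eBayes settings, a test against a 1.2-fold change (treat), a replicate block and leaving out each array.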

Additional observations from a re-analysis of the deposited data

How the results depend on the processing

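The members' calls rest on the variance that limma shares across genes. Without that moderation 1 member, the pan-leukocyte gene Laptm5, was higher and 0 were lower. The general, resident and activated subgroups had 0 higher, and the other probe sets of the members 0. The further lists then had 3 higher (other pan-leukocyte genes), 1 (other macrophage genes, and phagocyte oxidase) or 0 (the others), 0 lower, and all tested genes had 80 higher and 54 lower. With a filter at the 60th percentile 1 activated member was higher, beside 11 other pan-leukocyte genes, 3 classical activation genes, 1 monocyte chemokine and 1 lower among other macrophage genes; with no filter 5 monocyte chemokines and receptors were higher. With the mean of all probe sets 1 of the other macrophage genes was lower. With treat at 1.2-fold, 1608 genes were higher and 740 lower, 1 of the other macrophage genes was lower and 0 of the colony-stimulating factor list. Ikbkb was not past the threshold without moderation (adjusted p = 0.18) or with treat (adjusted p = 0.19), neither of which alters its fold change.

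With any single array left out, 23 to 28 members were higher and 1 lower, and 24 of 28 called members kept their call each time. All tested genes had 1570 higher and 809 lower without wild type 1, 1584 and 669 without wild type 2, and 3096 and 1544 without K5-IKKbeta 2. The range over the 4 fits was 12 to 17 higher for other probe sets of the members, 5 to 8 higher and 0 to 1 lower for ITAM signalling, 0 to 2 lower for other macrophage genes, 0 to 1 lower for the colony-stimulating factor list, and 0.40 to 0.61 for Ikbkb. Trem2 gave 0.0035 with the mean of all probe sets. Lgals3 gave 0.023 after quantile normalization, and -0.16 to 0.12 with a single array left out (0.012 without wild type 1, 0.12 without K5-IKKbeta 2). Neither gene was past the threshold in those settings. No called member changed direction in any alternative, but 0 of the 28 kept their call in all of them. Laptm5, which kept its call without moderation, lost it with probe sets of shared sequence left out (0.28, adjusted p = 0.16 by limma).

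The arrays of both genotypes share replicate numbers, but no label says that a number marks a shared litter, batch or day. Deviations of same-numbered arrays correlated at 0.253 over tested genes and at 0.031 over 32 members. With a replicate block 26 members were higher, ITAM signalling had 1 lower gene, all tested genes had 3088 higher and 1465 lower, and Fcgr2b had an adjusted p of 0.0501. The number of arrays limits the precision: 2 per genotype.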

Other observations

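Some values in the lists went apart from their neighbours and were picked after they were seen. Siglec1, a sialic acid receptor of resident macrophages, measured 7.33 and 7.02 in wild type and 6.76 and 6.62 in K5-IKKbeta skin, with no overlap, while the resident markers Cd163 and Mrc1 rose. S100a9 measured 6.69 and 6.70 in wild type and 9.27 and 9.04 in K5-IKKbeta skin, whereas S100a8, the partner with which its protein pairs, measured 9.94 and 10.06 against 10.14 and 9.97 (0.06, adjusted p = 0.73 by limma). Maf, a transcription factor of resident macrophages and other cells, measured 12.23 and 12.38 in wild type and 11.16 and 11.52 in K5-IKKbeta skin, while Spi1 rose.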
